A study of Mus musculus with 4 samples.

Results

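The sites of 2 transcription factors, Neurod1 and Foxa2, were compared by their relative strength in 1 cell line. Neurod1 belongs to the basic helix-loop-helix factors and works in endocrine and neuronal cells. It binds E-box DNA as a dimer with a ubiquitous partner protein, and in beta cells it acts on the insulin genes and on genes of glucose-stimulated secretion. Foxa2 is a forkhead factor of the gut endoderm, liver and pancreas. It can bind its motif on nucleosomes and is described as a pioneer that opens chromatin for other factors, and in beta cells it acts on genes of the secretory machinery. Insm1, a zinc finger protein of the endocrine lineage, was the third factor mapped in the study. It served here only as a readout that took no part in choosing sites or pairs. Its list comes from the same cell line and is not independent of the other lists.

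All chromatin came from a mouse beta cell line of passages 10 to 15, kept in 25 mmol/l glucose. The line was grown out of islets of RIP1-Tag2 mice aged 6 weeks, whose mixed background comprises C57BL/6, 129/ola and CBA/J. RIP1-Tag2 carries an oncogene of a tumour virus under an insulin promoter, so the cells are transformed beta cells. Whether the line is 1 clone is not stated. The Neurod1, Foxa2 and Insm1 groups hold 1 sample each, and their labels differ only in the antibody. A control with IgG was also made and is not analysed here. The design text counts 6 samples, with repeats for Insm1 and Foxa2 but none named for Neurod1, and how repeats entered the lists is not stated. The spread between replicates therefore cannot be given, no test between conditions was made, and the 95% Wilson intervals cover counting error only.

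Members were all sites wider than 60 bp in both lists. That left 14183 of 14607 Neurod1 sites and 28108 of 28379 Foxa2 sites, 42291 of the 60439 sites deposited for the 3 factors. The filter removed 424 Neurod1 and 271 Foxa2 sites, among them the highest score of each list, 1523 for Neurod1 and 404994 for Foxa2. On the edge of that rule, the 62 Neurod1 sites of exactly 60 bp and the 66 of 61 bp both had a median score of 56. The 25 Foxa2 sites of 60 bp had a median score of 28 and the 31 of 61 bp a median of 24. The sources used here do not define the score, so each score was turned into a percentile within its own list, with 100 as the strongest. A percentile above 90 stands for a score of at least 176 in the Neurod1 list and at least 140 in the Foxa2 list. Read depth is unknown.

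In the full lists more than 50% of Neurod1 sites were Foxa2 sites too, while most Foxa2 sites lay apart from Neurod1. A site was counted as shared when it overlapped the other list by at least 1 bp. The 8080 overlapping pairs covered 57.0% of Neurod1 sites (56.2 to 57.8%) and 28.7% of Foxa2 sites (28.2 to 29.3%). No site of either list met more than 1 site of the other, so the pairs are one to one. Both shares therefore have the same numerator and differ only through the lengths of the lists. Cut to equal length, both lists were shared at 42.4% (41.6 to 43.2%), and that equality is set by construction. The overlap was usually broad, with a median of 142 bp, and only 23 pairs overlapped by 10 bp or less. Just outside the rule, 40 unshared Neurod1 sites had a Foxa2 site whose edge lay under 10 bp away. Exactly 1 pair had the same start and end in both lists.

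Sharing climbed with the strength of the site in both lists, more steeply for Foxa2. Among Neurod1 sites it went from 42.7% (40.3 to 45.2%) in the weakest decile to 79.0% (76.8 to 81.0%) in the strongest. Among Foxa2 sites it went from 10.8% (9.73 to 11.9%) to 72.1% (70.4 to 73.7%). The median Neurod1 percentile was 57.9 at shared and 39.9 at unshared sites, and the median Foxa2 percentile was 74.8 at shared and 40.7 at unshared sites. The partner's strength moved along as well. Foxa2 partners of the weakest Neurod1 decile had a median percentile of 63.8, and those of the strongest decile 89.4. Neurod1 partners went from a median percentile of 48.9 in the weakest Foxa2 decile to 75.2 in the strongest.

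**Figure D1:**
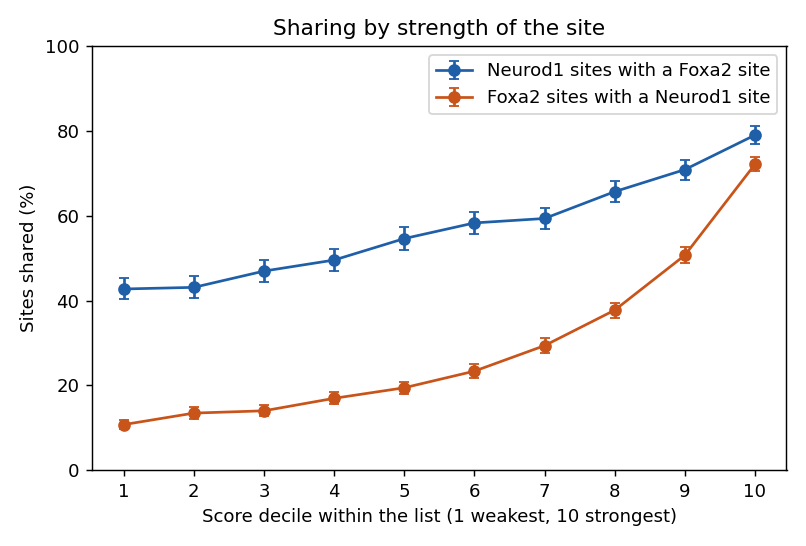
Share of sites that overlap a site of the other factor (y axis, percent) by score decile within the list (x axis, 10 strongest); points are shares and bars are 95% Wilson intervals over sites. The Neurod1 line runs from 42.7 to 79.0% and the Foxa2 line, which starts lower, from 10.8 to 72.1%.

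Width moved with sharing too, and with score. Of Neurod1 sites 61 to 100 bp wide, 35.2% (33.4 to 36.9%) were shared, compared with 76.6% (74.5 to 78.6%) of those over 200 bp. Foxa2 sites showed 14.2% (12.7 to 15.9%) and 34.4% (33.6 to 35.2%) in the same width classes. Spearman's rho of width with score over all kept sites was 0.31 for Neurod1 and 0.19 for Foxa2. The gap between strong and weak sites was present at one width: among Neurod1 sites of 151 to 200 bp, 83.0% (80.3 to 85.4%) of the strongest decile and 56.4% (51.3 to 61.4%) of the weakest were shared. Among Foxa2 sites of that width the shares were 68.6% (65.4 to 71.5%) and 10.6% (8.70 to 12.8%). For Neurod1 it was smallest at 61 to 100 bp, with 39.7% (31.2 to 48.8%) and 31.3% (27.6 to 35.3%), where the intervals overlap.

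At shared sites the strengths of the factors were only loosely matched. Spearman's rho of the percentiles was 0.29 over the 8080 pairs, which share chromatin and cells and are not independent. Ranks lay at most 10 percentile points apart in 2150 pairs, 26.6% (25.7 to 27.6%), here called concordant. Concordant pairs were mostly strong in both lists, with median percentiles of 81.2 for Neurod1 and 81.6 for Foxa2. In 372 pairs, 4.60% (4.17 to 5.08%), Neurod1 ranked at least 50 points above Foxa2. In 1130 pairs, 14.0% (13.2 to 14.8%), Foxa2 ranked at least 50 points above Neurod1. These are called Neurod1-skewed and Foxa2-skewed. Their median percentiles were 82.1 for Neurod1 with 15.6 for Foxa2, and 16.6 for Neurod1 with 86.7 for Foxa2. The pairs on either side of the 50-point limit stood at 49.9 and 50.2 points for Neurod1 and at 49.989 and 50.0045 points for Foxa2.

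Foxa2 ranked above Neurod1 in most pairs, and the size of the excess of Foxa2-skewed pairs depended on list length. Foxa2 had the higher percentile in 5182 pairs (64.1%), with a median difference of -9.91 points for Neurod1 minus Foxa2. The Foxa2 list is longer, and 28.7% of it was shared, compared with 57.0% of the Neurod1 list. Unshared sites lay low in both lists, at median percentiles of 40.7 for Foxa2 and 39.9 for Neurod1. With lists of equal length 7.03% (6.41 to 7.70%) of pairs were Neurod1-skewed and 9.62% (8.90 to 10.4%) Foxa2-skewed, a smaller excess in the same direction. When both factors were ranked again within the 8080 pairs alone, the shares were 8.24% (7.66 to 8.86%) and 8.01% (7.44 to 8.62%). That ranking sets the mean difference to 0, so the even split says nothing of which factor is the stronger. The concordant share was 27.4% with equal lengths, within the main interval, and 25.2% with ranks within the pairs, below it.

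**Figure D2:**
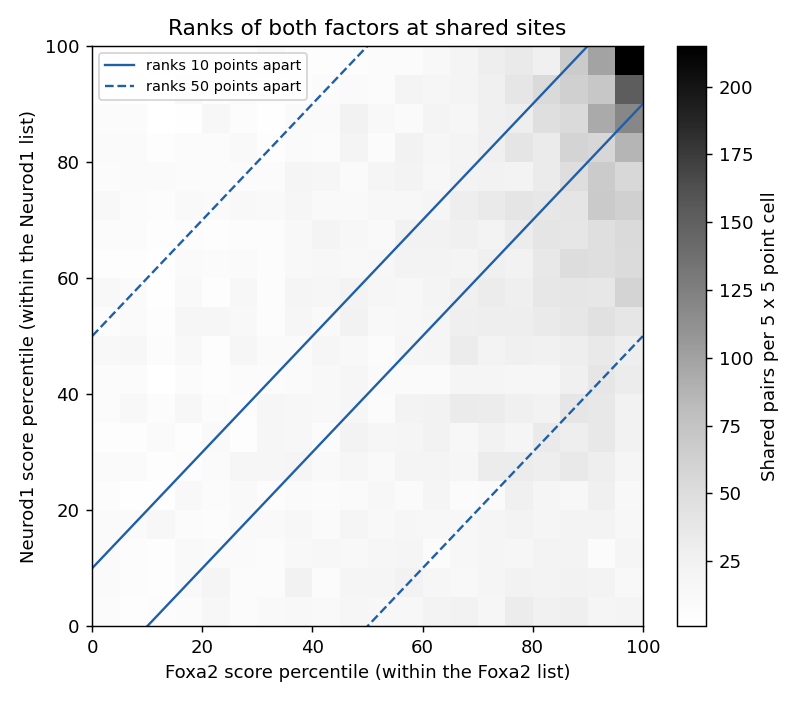
Score percentile of Foxa2 (x axis) and Neurod1 (y axis) at the 8080 shared pairs, each within its own list; grey shade is the number of pairs per cell, solid lines mark ranks 10 points apart and dashed lines 50 points apart. Pairs crowd in the upper right corner and thin out toward the corner of strong Neurod1 and weak Foxa2, which holds the 372 Neurod1-skewed pairs.

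The concordant share was lower for Neurod1 with Foxa2 than for Insm1 with Neurod1. By the same measure, 32.3% (31.3 to 33.2%) of the 9469 pairs of Insm1 with Neurod1 were concordant, above the 26.6% for Neurod1 with Foxa2. The 9768 pairs of Insm1 with Foxa2 gave 27.6% (26.8 to 28.5%), whose interval overlaps that of Neurod1 with Foxa2. With ranks taken within each set of pairs the concordant shares were 25.2, 30.5 and 26.2% for Neurod1 with Foxa2, Insm1 with Neurod1 and Insm1 with Foxa2. These sets of pairs share lists and many sites, so the 3 values are given side by side only.

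The pairs strongest in both lists were led by a site on chromosome 3. Its Neurod1 site at chr3:31943640-31943788 (mm9, as are all positions here) ranked 9 with a score of 841, and its Foxa2 site at chr3:31943613-31943798 ranked 11 with a score of 972, the summits lying 30 bp apart. Next came chr4:149513243-149513406, with a Neurod1 rank of 5 and a Foxa2 rank of 41. The site at chr1:85284681-85284777 ranked 18 and 52, with both summits on the same base. Those at chr5:23584752-23584932 and chr4:12582572-12582790 ranked 7 and 68, and 58 and 122. Insm1 sites lay at all 5 and ranked between 10 and 135 of the 17382 Insm1 sites over 60 bp. Of all 539 pairs with both percentiles above 90, 96.8% held Insm1.

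The most Neurod1-skewed pairs set a strong Neurod1 site against a Foxa2 site near the floor of its list. At chr7:148465089-148465257 the Neurod1 score was 289 (percentile 97.1) and the Foxa2 score 19 (percentile 0.722), the lowest score in the Foxa2 list. At chr5:54384053-54384199 the scores were 296 and 20, and at chr7:105510059-105510225 they were 288 and 21. At chr7:123880082-123880230 they were 275 and 21, and at chr5:23959259-23959420 they were 193 and 19. The Foxa2 scores at these 5 places lay within 2 of the lowest in that list. Insm1 sites were present at all 5, with Insm1 percentiles from 46.0 to 84.7, and at 86.3% of all Neurod1-skewed pairs.

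The most Foxa2-skewed pairs were the mirror image. At chr19:32276636-32276863 the Neurod1 score was 46, the lowest of its list, and the Foxa2 score 269 (percentile 97.2). At chr1:76900650-76900734 the scores were 46 and 253, and at chr12:74191997-74192140 they were 46 and 251. At chr14:72910894-72911021 they were 47 and 390, and at chr13:15694608-15694806 they were 47 and 380. Insm1 was again present at all 5, at percentiles from 55.0 to 72.2, and at 76.0% of all Foxa2-skewed pairs. A weak partner score did not mean a distant summit: summits lay 0 to 60 bp apart at these 5 and 20 to 72 bp apart at the 5 Neurod1-skewed pairs.

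Insm1, which played no part in choosing the pairs, was found at 80.9% of them (80.1 to 81.8%). Over all kept sites, shared or not, Insm1 was at 66.8% of Neurod1 and 34.8% of Foxa2 sites. Among the pairs, Insm1 was more frequent in Neurod1-skewed than in Foxa2-skewed ones. It was present at 86.3% (82.4 to 89.4%) of Neurod1-skewed pairs and 76.0% (73.4 to 78.4%) of Foxa2-skewed pairs, a difference of 10.3 points (5.72 to 14.3). Concordant pairs held it in 84.9% (83.3 to 86.3%), with an interval that overlaps that of Neurod1-skewed pairs. Where Insm1 was present, its median percentile was 72.8 at Neurod1-skewed, 55.0 at Foxa2-skewed and 82.0 at concordant pairs. With ranks within the pairs the Insm1 shares were 89.6% and 82.5%, a difference of 7.10 points (3.37 to 10.9). Across the 6539 pairs with Insm1, rho of the Insm1 percentile was 0.51 with the Neurod1 percentile and 0.34 with the Foxa2 percentile.

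Both ranks moved with Insm1 when they were split into 4 equal ranges of percentile. With both factors in the lowest range (percentiles up to 25), Insm1 was present at 44.4% (38.2 to 50.8%) of 234 pairs. With Neurod1 in the highest range (above 75) and Foxa2 in the lowest it was present at 90.6% (85.3 to 94.1%) of 170 pairs. With Foxa2 in the highest range and Neurod1 in the lowest it was present at 77.8% (74.1 to 81.1%) of 532 pairs, 12.8 points fewer (6.49 to 17.9). With both in the highest range the share was 95.6% (94.5 to 96.5%) of 1678 pairs. With Neurod1 in its highest range the share went from 90.6% at the lowest Foxa2 range to 95.6% at the highest, with intervals that do not overlap, and the median Insm1 percentile from 73.2 to 88.4.

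**Figure D3:**
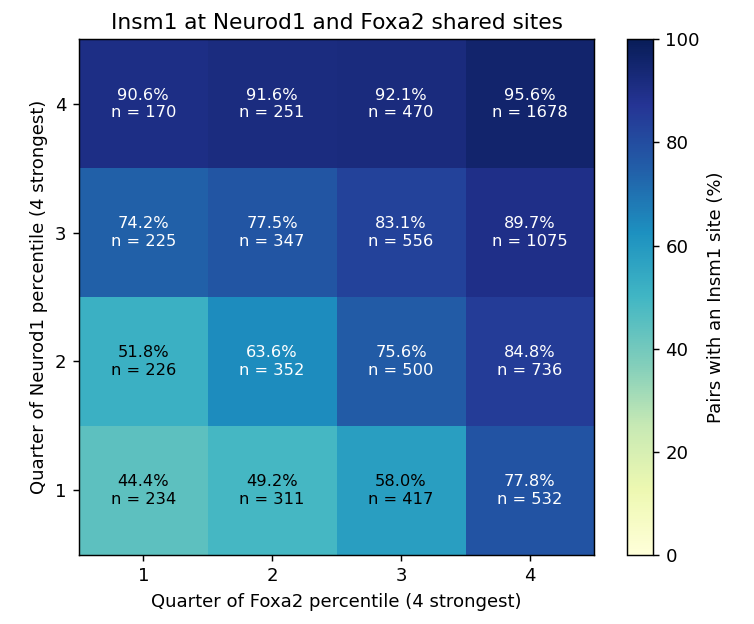
Share of shared pairs that hold an Insm1 site (colour and percent in each cell, with the number of pairs) by range of Foxa2 percentile (x axis) and Neurod1 percentile (y axis), 4 being the strongest. The top row goes from 90.6 to 95.6% and the bottom row from 44.4 to 77.8%.

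Summit distances were similar across the classes of pairs. The median distance between the Neurod1 and Foxa2 summits was 41 bp in Neurod1-skewed and in Foxa2-skewed pairs and 40 bp in concordant ones. Summits lay within 25 bp in 31.2% (26.7 to 36.1%), 34.6% (31.9 to 37.4%) and 35.02% (33.0 to 37.1%) of these pairs, with overlapping intervals. The 539 pairs with both percentiles above 90 had a smaller median distance of 30 bp, and 96.8% (95.01 to 98.02%) of them held Insm1. Median Neurod1 widths were 161 bp in Neurod1-skewed and 150 bp in Foxa2-skewed pairs, and median Foxa2 widths were 196 and 211 bp. The rank difference was nearly unrelated to the width difference (rho 0.07 over the 8080 pairs).

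Strong sites without the other factor were a minority of each top decile. In the strongest Neurod1 decile 298 of 1418 sites, 21.0% (18.97 to 23.2%), had no Foxa2 site, and in the strongest Foxa2 decile 787 of 2821, 27.9% (26.3 to 29.6%), had no Neurod1 site. The order of these shares turned with lists of equal length, to 28.9% (26.6 to 31.3%) for Neurod1 and 20.5% (18.4 to 22.6%) for Foxa2. Unshared strong sites held Insm1 less often than shared ones. Insm1 was at 69.5% (64.0 to 74.4%) of unshared and 96.3% of shared top-decile Neurod1 sites, a difference of 26.8 points (21.7 to 32.3). It was at 50.4% of unshared and 93.0% of shared top-decile Foxa2 sites, a difference of 42.5 points (38.8 to 46.2). Over all kept sites of any strength, Insm1 was at 66.8% of Neurod1 and 34.8% of Foxa2 sites. These whole lists include shared sites. Among unshared sites of any strength, Insm1 was at 48.5% (47.2 to 49.7%) of Neurod1 and 16.2% (15.7 to 16.7%) of Foxa2 sites. Unshared strong sites of both factors thus held Insm1 more often than all unshared sites of their list. Unshared top-decile Neurod1 sites were 100 bp wide or less in 23.5% of cases, compared with 4.11% of shared ones, and the part of width in these differences was not tested.

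Some of the strongest unshared sites faced a strong site of the other factor within 1000 bp. The Foxa2 site at chr13:116136512-116136731, with a score of 1265, ranked 2 in its list, and the Neurod1 site at chr13:116136932-116137134, with a score of 723, ranked 16. Their summits lay 408 bp apart, so neither counted as shared. Foxa2 sites at chr3:57148265-57148495 (score 873), chr2:146191394-146191612 (889) and chr1:75334495-75334729 (1045) had a Neurod1 summit 326, 555 and 884 bp away, at Neurod1 percentiles of 94.3, 98.5 and 93.9. The highest Foxa2 score, 11035, was at a 64 bp site, chr9:35112943-35113007, just above the width limit and 39172 bp from the nearest Neurod1 summit.

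The other leading unshared Neurod1 sites were farther from Foxa2. That at chr3:53267510-53267677 (score 830, rank 10) was 23180 bp from the nearest Foxa2 summit, and that at chr7:28474248-28474322 (719, rank 17) was 97894 bp away. That at chr6:119008553-119008721 (635, rank 25) was 6509 bp from a Foxa2 site at percentile 33.3. All 3 held Insm1, as did 69.5% of all unshared top-decile Neurod1 sites. The highest of all, chr17:39981114-39981338 (score 1133, rank 4), held no Insm1 and lay 3700 bp from a Foxa2 site that ranked 70. That site was isolated within its own list, with the next Neurod1 summit 1352834 bp away. No filter for repeats or artefact regions was applied here. Whether this site, or the 64 bp Foxa2 site with a score of 11035, reflects binding was not tested.

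Such near misses made up part of the unshared sites. There were 623 Neurod1 sites, 10.2% of the unshared (9.47 to 10.99%), with a Foxa2 summit within 500 bp but no overlap, and the same number of Foxa2 sites in return, 3.11% of the unshared. Their median percentiles were 54.1 for Neurod1 and 64.6 for Foxa2, above the 39.9 and 40.7 of all unshared sites. In the top deciles, 20.1% (16.0 to 25.1%) of unshared Neurod1 sites and 11.8% of unshared Foxa2 sites were near misses. With both lists widened by 500 bp per side, the unshared share of the top decile fell to 13.8% for Neurod1 and 22.9% for Foxa2.

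Sites of one factor kept their distance from each other. No Neurod1 summit lay within 681 bp of another and no Foxa2 summit within 624 bp, whereas 8703 sites of each list had a summit of the other factor within 500 bp. A second site of the same factor inside 500 bp is therefore absent from both lists, and whether that came from binding or from the way sites were called cannot be told apart. The median distance to the nearest site of the same factor was 26147 bp for Neurod1 and 16765 bp for Foxa2. A neighbour within 10 kb was found for 27.1% (26.4 to 27.8%) of Neurod1 and 35.9% (35.3 to 36.4%) of Foxa2 sites. With lists of equal length the Foxa2 share was 23.5% (22.8 to 24.2%), below that of Neurod1.

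**Figure D4:**
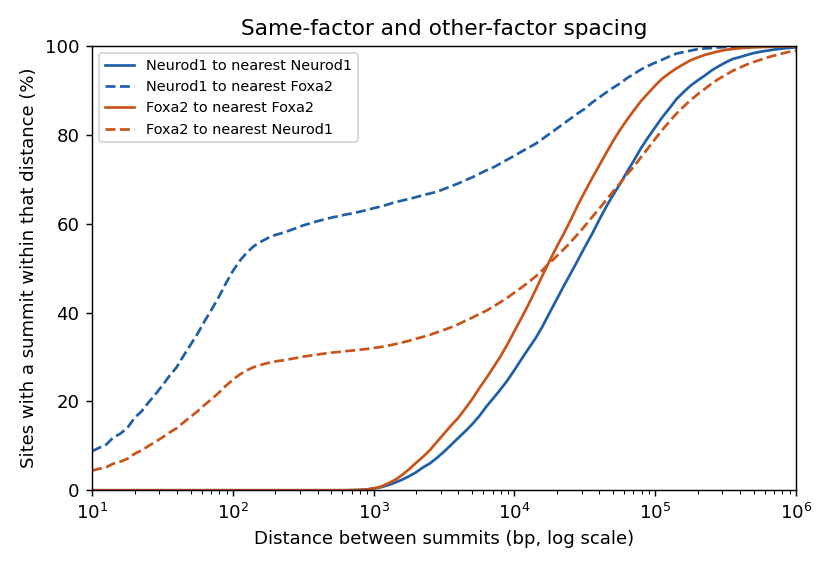
Share of sites (y axis, percent) with a summit of the same factor (solid) or of the other factor (dashed) within a given distance (x axis, bp, log scale). The solid lines stay at 0 until 681 bp for Neurod1 and 624 bp for Foxa2, while at 500 bp the dashed lines stand at 61.4% of Neurod1 and 31.0% of Foxa2 sites.

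Shared Foxa2 sites had closer Foxa2 neighbours than unshared ones, and Neurod1 sites hardly differed. A Foxa2 neighbour within 10 kb was found for 41.5% of shared and 33.6% of unshared Foxa2 sites, a difference of 7.97 points (6.71 to 9.23). For Neurod1 the shares were 27.8% and 26.2%, a difference of 1.58 points (0.10 to 3.04). Shared Foxa2 sites were also stronger, and a Foxa2 neighbour was found for 40.7% of Foxa2 sites above percentile 75 and 32.9% up to 25. Within the top Foxa2 decile it was found for 45.8% (43.6 to 47.9%) of shared and 34.4% (31.2 to 37.8%) of unshared sites. The part of strength in the 7.97 points was not tested. Neurod1-skewed pairs had another Neurod1 site within 10 kb in 31.2% of cases and Foxa2-skewed pairs in 23.8%. The difference was 7.38 points (2.20 to 12.8). Among all Neurod1 sites the share was 31.1% at percentiles above 75 and 26.0% at percentiles up to 25. The skewed classes differ in Neurod1 rank by definition, so an effect of skew was not separated from Neurod1 strength. Another Foxa2 site lay within 10 kb in 39.5% (34.7 to 44.6%) of Neurod1-skewed and 40.9% (38.1 to 43.8%) of Foxa2-skewed pairs, with overlapping intervals. Runs of sites with gaps of at most 10 kb reached 7 Neurod1 sites, as on chromosome 8 from 12928160 to 12955264, of which 5 were shared. The longest Foxa2 run held 13 sites on chromosome 2 from 146080681 to 146136159, of which 6 were shared.

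Strengths of neighbouring sites were close to unrelated. Over the 1000 pairs of mutually nearest Neurod1 sites up to 5 kb apart, rho of their percentiles was -0.04, and over 2680 such Foxa2 pairs it was 0.05. For the rank difference between Neurod1 and Foxa2, rho was -0.06 over 383 mutually nearest shared pairs up to 5 kb apart and 0.15 over 983 that were 20 to 100 kb apart.

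At the scale of 1 Mb both factors were dense in the same parts of the genome. Over 2649 bins rho of the site counts was 0.81, and it was 0.50 when only unshared sites of both lists were counted. Bins share chromatin and mappability, and neither was measured here. They ran from position 1 of each chromosome to its last summit, and unsequenced stretches were not removed. Bins unable to hold a site may thus be among those with neither factor and add to both rho values. A bin held a median of 4 Neurod1 sites (quartiles 1 and 8, at most 31) and 10 Foxa2 sites (quartiles 5 and 15, at most 47). Both were present in 2138 bins, Foxa2 alone in 299, Neurod1 alone in 13 and neither in 199. The bins with Foxa2 alone held 1063 Foxa2 sites, 3.78% of the list. The densest 265 bins of each factor held 31.5% of its sites for Neurod1 and 24.4% for Foxa2.

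**Figure D5:**
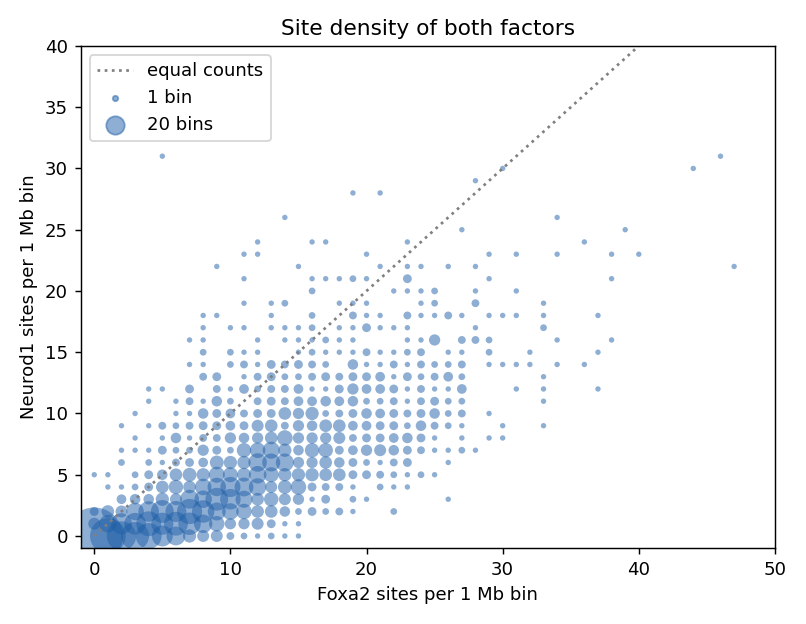
Sites per 1 Mb bin for Foxa2 (x axis) and Neurod1 (y axis); the area of a point grows with the number of bins at that pair of counts, and the dotted line marks equal counts. Most bins lie below the line, and 193 of 2649 hold more Neurod1 than Foxa2 sites.

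Single bins departed from the common pattern. The bin chr3:51000001-52000000 was among the densest for both, with 31 Neurod1 and 46 Foxa2 sites, 20 of them shared. By contrast chr10:80000001-81000000 also held 31 Neurod1 sites but only 5 Foxa2 sites, 3 of them shared, with 23 Insm1 sites. The bin chr4:148000001-149000000 held 30 of each, 14 shared. Foxa2 was densest at chr18:55000001-56000000, with 47 sites beside 22 Neurod1 sites, and the 17 shared pairs there had a median difference of -29.98 points, toward Foxa2. At chr8:129000001-130000000 there were 44 Foxa2 and 30 Neurod1 sites, 24 shared. Among bins without Neurod1, the most Foxa2 sites were 15 at chr3:117000001-118000000, 14 at chr16:6000001-7000000 and 13 at chr9:111000001-112000000, at median Foxa2 percentiles of 33.3, 36.3 and 31.0. The bin on chromosome 9 held 7 Insm1 sites, the other two 2 and 1.

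Sharing fell with crowding for Neurod1 sites and rose for Foxa2 sites, where bins without Neurod1 add to the rise. Neurod1 sites in bins of 1 to 4 Neurod1 sites were shared in 65.4% of cases (63.3 to 67.4%) and those in bins of 20 or more in 50.97% (48.2 to 53.7%). Foxa2 sites in bins of 1 to 4 Foxa2 sites were shared in 15.7% (13.6 to 17.9%) and those in bins of 20 or more in 33.3% (32.3 to 34.3%). Median percentiles in the same bins went from 50.02 to 54.1 for Neurod1 and from 44.9 to 52.2 for Foxa2. A Foxa2 site in a bin without Neurod1 has almost no way to be shared. Such bins held at most 15 Foxa2 sites each and 1063 in total, so they lower the Foxa2 share only in bins of fewer than 20. Of the bins without Neurod1, 77 held 1 Foxa2 site, 52 held 2, 47 held 3 and 40 held 4. They thus weighed most on the class of 1 to 4, which had 1104 Foxa2 sites. The Foxa2 trend without those bins was not computed, so how much of the rise from 15.7% would remain is not given.

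Chromosomes differed in the balance of the factors. Chromosome 17 carried 67.5 Neurod1 sites per 100 Foxa2 sites and chromosome 11 carried 66.6, while chromosome 14 carried 40.5 and the X chromosome 27.8. Leaving out Y and M, with 1 Neurod1 site each and none shared, Neurod1 sites were shared least on chromosomes 17 (48.8%, 44.9 to 52.7%) and 11 (49.5%, 46.3 to 52.7%), and most on chromosomes 14 (62.9%, 58.9 to 66.9%) and 13 (62.9%, 58.7 to 66.9%). Foxa2 sites went the other way there, shared at 32.9% on each of chromosomes 17 and 11, 25.5% on 14 and 26.0% on 13. The pairs are one to one, so on a chromosome both shares differ only through the numbers of sites. On the X chromosome 102 of 172 Neurod1 sites were shared (59.3%, 51.8 to 66.4%), and 16.5% (13.8 to 19.6%) of its 619 Foxa2 sites were.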

How the data were processed

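Site lists of the Neurod1, Foxa2 and Insm1 samples were used. The submitters' processing notes name CASAVA, Bowtie 0.12.7, MACS 1.4 and the build mm9. Not given in the sources used here: settings, threshold, control and any pooling of repeats. Each deposited list holds chromosome, start, end, an inner position read as the summit, and a whole-number score of undefined scale. Depth is unknown.

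Sites of 60 bp or less were dropped and scores ranked within each list, with ties at their mean rank. A site was shared at 1 bp of overlap; Insm1 was counted where it overlapped either site of a pair. Intervals are 95% Wilson intervals, or Newcombe intervals for differences, and treat sites as independent. With 1 sample per group no p-value was computed. Members, classes and comparisons were chosen with earlier results of these data known. Named sites are the 5 pairs with the highest lower percentile, the 5 most skewed pairs each way and the 5 highest unshared sites of each list. Named bins are the 3 densest for each factor and the 3 with most Foxa2 sites and no Neurod1. A genome or annotation of mm9 was not used here, so genes, sequences and motifs are not given. Scripts were tested on simulated lists (Python 3.11.15, numpy 2.4.6, pandas 2.3.3, scipy 1.17.1, matplotlib 3.10.9).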

Additional observations from a re-analysis of the deposited data

How the results depend on the processing

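No paired analysis was possible because each group holds 1 sample. Of 71 alternative values for 14 results, 40 stayed within the main 95% interval, or within 0.05 for rho, and 31 moved. The tally overstates stability, since 4 of the 40 use the same sites as the main value: every overlapping pair (3 values) and the Neurod1 neighbours with equal lengths. Removal of chromosomes X, Y and M, chosen after seeing the data, moved none. The limits are 1 list per factor, an undefined score, unknown depth and a sharing rule that favours wide sites.

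Foxa2 was at 53.2% of Neurod1 sites by centres within 100 bp, 54.4% with overlap of at least 0.5 of the narrower site, 55.9% with no filter on width, 61.01% with sites over 100 bp, 42.4% with lists of equal length and 53.0% above the median scores. Neurod1 at Foxa2 sites gave, in that order, 26.8, 27.5, 28.8, 26.1, 42.4 and 26.7%. With equal lengths 7.03% of pairs were Neurod1-skewed and 9.62% Foxa2-skewed. Ranked within the pairs, 25.2% were concordant, 8.24% Neurod1-skewed and 8.01% Foxa2-skewed, and Insm1 was at 89.6 and 82.5% of the skewed pairs.

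Top-decile sites without the other factor were 24.8% (Neurod1) and 32.4% (Foxa2) with centres within 100 bp, 13.8 and 22.9% with widened sites, and 28.9 and 20.5% with equal lengths. In the weakest decile, centres within 100 bp gave 39.5% of Neurod1 and 10.3% of Foxa2 sites as shared. Same-factor neighbours were found for 14.8 and 20.5% within 5 kb, 43.1 and 54.9% within 20 kb, and 23.5% of Foxa2 sites with equal lengths. Over bins, rho of unshared sites was 0.50. The causes of these moves were not tested, apart from those set by construction (a stricter or looser rule, fewer sites).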
